A study of Mus musculus with 12 samples.

Results

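Small nucleolar RNAs (snoRNAs), the related small Cajal body RNAs (scaRNAs) and genes named for hosting snoRNAs were described. The samples were mouse renal tumors that arose without Lats1 and Lats2, and sorted proximal tubule cells. The rows were chosen by gene symbol: 122 of the 24432 genes in the table had a symbol beginning with Snora, Snord or Scarna, or were named Snhg with a number or Gas5. They comprised 109 small RNA rows (64 C/D snoRNAs, 37 H/ACA snoRNAs and 8 scaRNAs) and 13 host genes. The latter are called hosts by their names, and not all of them contain a small RNA row in the annotation. Snhg11 is annotated as protein-coding. The symbols alone selected the rows, but the family was chosen because earlier results of these data had shown small RNA genes far higher in tumors than in the sorted cells. The comparisons with proximal tubule cells are therefore given as descriptions without a test, and tests are given only between the tumor groups.

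Lats1 and Lats2 are the kinases that restrain YAP and TAZ in the Hippo pathway. There were 12 libraries in 4 groups of 3, all from mice of mixed background. The source of the primary kidney tumors and of the lung metastases was Slc34a1CreERT2;Lats1/2flox/flox mice, in which the promoter of the proximal tubule phosphate transporter gene Slc34a1 drives a tamoxifen-dependent Cre recombinase. Those mice had 3 tamoxifen injections in young life and their tumors were dissected 4 months later. Allograft tumors were taken 6 weeks after Lats1-/-;Lats2-/- cells of mixed source had been placed under the renal capsule of NOD/scid hosts aged 6 to 8 weeks, which lack functional T and B cells but keep other host cells. How many cell isolates gave the allografts was not given in the sources used here. Sorted proximal tubule cells came from Slc34a1CreERT2;Lats1c/c;Lats2c/+;RosaTomato mice, are described as wild type, and carry conditional Lats alleles and the same Cre. Whether those alleles had been recombined was not given in the sources used here. No label says whether replicates are separate animals. The p-values then cover sample-to-sample spread alone, and part of it may be technical.

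SnoRNAs are short RNAs, mostly cut out of the introns of other genes, that guide chemical modification of ribosomal RNA in the nucleolus. C/D snoRNAs carry short sequence boxes, C near the 5′ end and D near the 3′ end, and guide 2′-O-methylation with fibrillarin, whereas H/ACA snoRNAs end shortly after the triplet ACA and guide pseudouridylation with dyskerin. ScaRNAs are built alike but work in Cajal bodies on spliceosomal RNAs. The exons of several host genes, Gas5 and many Snhg genes among them, code for no conserved protein, begin with the pyrimidine-rich start of ribosomal protein genes, and give spliced RNAs that are degraded when translated.

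Sequences of 8 small RNAs are shown because the results turn on them. Snord15b and Snord17 had the highest mean levels in tumors by FPKM, a unit explained below. Snord93, Snord70 and Snord45b were higher in allograft tumors than in both other tumor groups, and Snord100, Snora47 and Snord89 were lower. The sequences are from the GENCODE M21 transcripts of the GRCm38 build, read 5′ to 3′. Capitals mark the core of box C (GATG) and box D (CTGA) in the C/D snoRNAs, and the ACA triplet in Snora47.
Snord15b: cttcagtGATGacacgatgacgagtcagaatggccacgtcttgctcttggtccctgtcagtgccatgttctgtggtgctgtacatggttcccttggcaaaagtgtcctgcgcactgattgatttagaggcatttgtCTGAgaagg
Snord17: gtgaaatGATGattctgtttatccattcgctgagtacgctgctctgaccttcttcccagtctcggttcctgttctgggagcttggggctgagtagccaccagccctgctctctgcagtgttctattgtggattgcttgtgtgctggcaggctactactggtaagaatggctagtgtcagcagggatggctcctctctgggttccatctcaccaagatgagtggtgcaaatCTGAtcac
Snord93: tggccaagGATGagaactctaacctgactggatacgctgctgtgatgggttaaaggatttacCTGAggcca
Snord70: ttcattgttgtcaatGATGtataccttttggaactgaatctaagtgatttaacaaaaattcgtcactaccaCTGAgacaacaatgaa
Snord45b: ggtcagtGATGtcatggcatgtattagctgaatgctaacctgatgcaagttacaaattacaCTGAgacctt
Snord100: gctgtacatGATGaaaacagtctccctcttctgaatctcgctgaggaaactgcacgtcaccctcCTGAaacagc
Snora47: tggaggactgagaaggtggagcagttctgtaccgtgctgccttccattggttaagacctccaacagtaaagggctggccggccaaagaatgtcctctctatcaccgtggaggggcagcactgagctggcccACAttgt
Snord89: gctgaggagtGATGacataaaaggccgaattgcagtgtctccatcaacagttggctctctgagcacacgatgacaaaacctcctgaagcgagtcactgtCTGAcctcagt

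Snord15b lies at chr7:99479563-99479707 (minus strand, 145 nt) inside an annotated exon of a transcript of Rps3, a ribosomal protein gene. Snord17 lies at chr2:144265979-144266216 (minus strand, 238 nt) in an intron of Snx5, a sorting nexin gene. Snord93 lies at chr5:23852210-23852280 (plus strand, 71 nt) within the noncoding gene 2700038G22Rik. Snord70 lies at chr1:59691934-59692020 (plus strand, 87 nt) within Nop58, which codes for a core protein of C/D snoRNA particles. Snord45b lies at chr3:153910563-153910633 (minus strand, 71 nt) within Rabggtb. Snord100 lies at chr10:23785750-23785823 (minus strand, 74 nt) within the ribosomal protein gene Rps12. Snora47 lies at chr13:95330600-95330737 (plus strand, 138 nt) within Zbed3, and Snord89 at chr1:39548745-39548854 (minus strand, 110 nt) within the noncoding gene Gm15832.

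The boxes were present in nearly all members of each class. GATG, read on the RNA strand alone, occurred in the first 20 nt of 61 of 64 C/D rows (95.3%) and CTGA in the last 20 nt of 63 (98.4%). Both were found in 60 C/D rows (93.8%), against 0.773% of 6856 other annotated transcripts of 60 to 250 nt. ACA occurred in the last 8 nt of 35 of 37 H/ACA rows (94.6%), against 11.2% of those other transcripts. Annotated lengths were 64 to 238 nt (median 76.5) for C/D rows, 121 to 196 nt (median 132) for H/ACA rows and 70 to 414 nt (median 139.5) for scaRNAs. In the annotation, 61 of the 109 small RNAs lay in an intron of every transcript of their host, 42 lay inside an annotated exon of a host transcript, and 6 had no host.

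Values were FPKM, which scale the fragments of a row by its length and by the library's total. For very short RNAs that unit rests on few fragments: the values of 101 small RNA rows moved in whole steps, within 0.001 fragments, and the length each step implied was 2.51 to 33.1 nt (median 4.13), far under the annotated length. Levels in FPKM are therefore compared here between libraries for a given row, and not between small RNAs and host genes. Rankings of small RNAs by FPKM serve only to choose which to name or show. The steps gave the number of fragments behind each value and an implied depth of 15.6 to 18.5 M (M, mega) fragments for primary tumors, 16.4 to 20.9 in metastases, 13.0 to 20.4 in allograft tumors and 5.40 to 6.99 in the sorted cells. At an implied length of 4 nt, 1 fragment was worth 11.95 to 19.3 FPKM in the tumor libraries and 35.8 to 46.3 FPKM in sorted-cell libraries. Of the 101 rows, 28 had under 10 fragments in every tumor library and 10 had over 100 in each. Another 4 rows with small RNA symbols (Snora24, Snord7, Snord96a and the Snora43 row ENSMUSG00000097052) had the steps of longer transcripts, so their values may not be those of the small RNA.

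Some libraries stood apart. Lats1 stayed measurable at 5.60 to 7.82 FPKM in allograft tumors, against 9.54 to 14.7 in the other tumors and 11.9 to 12.8 in the sorted cells, and Lats2 was at 12.2 to 17.1, 13.0 to 22.5 and 10.49 to 10.96 FPKM. Gene totals do not show whether the deleted exons were missing. The summed level of 10 proximal tubule markers was 5319 to 6324 FPKM in the sorted cells and 38.3 to 221 FPKM in metastases, allograft tumors and primary tumor 1, but primary tumors 2 and 3 were at 4034 and 1036 FPKM. Summed leukocyte markers (8 genes) ran from 165 to 968 FPKM in primary tumors and 695 to 918 in metastases. They ran from 765 to 2759 FPKM in allograft tumors and 1.84 to 2.80 in the sorted cells. The sum hides a split among the 8 genes. By the limma rule given below, 3 were higher and 4 lower in allografts against primary tumors (20.5% and 21.1% of all genes). Against metastases 0 were higher and 4 lower (10.4% and 13.3% of all genes). The 4 lung epithelium markers reached 11685 to 18648 FPKM in metastases against at most 9.44 elsewhere. Allograft tumor 3 differed from the other two in its small RNAs, as described below.

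Small RNAs took a larger share of the fragments in tumors than in sorted proximal tubule cells. The 101 rows with recovered fragments held 1358, 1114 and 1262 fragments per M (M, mega) of the implied depth, here called FPM, in primary tumors 1 to 3, and 1281, 971 and 1344 in metastases 1 to 3. They held 993, 634 and 1813 in allograft tumors 1 to 3, and 176, 155 and 166 in the sorted cells. All 9 tumor libraries were above all 3 sorted-cell libraries. The kind of library (poly(A) selection or ribosomal depletion), and whether it was the same for tumors and sorted cells, was not given in the sources used here, so library kind and cell type cannot be told apart in these comparisons. Nor can fewer cells of a type and less RNA per cell in these bulk samples.

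Counted row by row, 71 of 109 small RNAs had all 3 primary tumors above all 3 proximal tubule libraries, and 1 had all 3 below. Over the whole table of 24432 rows, 46.0% were above and 3.93% below in that comparison. In metastases 80 small RNAs were above and 1 below, where the whole table had 51.9% above and 14.5% below. In allograft tumors 69 were above and 1 below, where the whole table had 45.5% above and 13.8% below. In every tumor group 56 small RNAs were above, a count for which the share of the whole table was not taken. H/ACA rows were above in 30, 31 and 24 of 37 cases in primary tumors, metastases and allografts, and C/D rows in 35, 41 and 40 of 64. Since the family was taken up for this difference, nothing is read from these counts.

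Depth limits these counts. In the sorted cells 34 small RNAs were listed at 0 in all 3 libraries, and 31 of these were among the rows with recovered fragments. A count of 0 allows up to 3 fragments, and of those 31 rows 2 in primary tumors, 4 in metastases and 4 in allografts had a median FPKM above the value of 3 fragments in every sorted-cell library. The other rows did not pass this bound. It takes each sorted-cell library alone, and differences of those rows over the pooled libraries were not assessed. The 17 small RNAs with at least 20 fragments over the sorted-cell libraries are better measured. Summed over the libraries of a group, their FPM were a median of 5.73 times the sorted-cell value in primary tumors (1.04 to 33.5), 6.22 times in metastases (0.903 to 33.0) and 6.60 times in allograft tumors (0.842 to 31.0), and 10 of the 17 were over 4-fold in each tumor group.

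The levels of small RNAs with the highest mean FPKM in tumors are given as a description. The order by recovered fragments differed. Snord17 held 13897, 15268 and 10736 fragments over primary tumors, metastases and allografts. Snord15b held 12104, 11927 and 3760, and Snora74a 9814, 6957 and 12277. Snord15b, a C/D guide for the large ribosomal subunit RNA, reached 42505, 30120 and 44246 FPKM in primary tumors, 37810, 29794 and 42257 in metastases, 4456, 3124 and 37321 in allografts, and 1888, 1889 and 2288 in the sorted cells. All tumor libraries were above the sorted cells, but allograft tumors 1 and 2 were far below the other 7. Snord17, another C/D guide, was at 21664, 21287 and 19292 FPKM in primary tumors, 23882, 16124 and 24181 in metastases, 13243, 10448 and 28176 in allografts, and 1219, 1109 and 1172 in the sorted cells. It rested on 2761 to 6486 fragments in each tumor library and on 79 to 93 in each sorted-cell library.

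Snord22, encoded in Snhg1 and needed for ribosomal RNA maturation, was at 31331, 15957 and 16674 FPKM in primary tumors, 22449, 13094 and 21390 in metastases, 3986, 2937 and 33292 in allografts, and 444, 658 and 897 in the sorted cells. Its FPM were 33.5, 29.6 and 16.8 times those of the sorted cells in the 3 tumor groups. Snora74a, an H/ACA RNA also called U19, was at 18360, 20350 and 20369 FPKM in primary tumors, 15329, 10622 and 13011 in metastases, 29582, 17352 and 27620 in allografts, and 2880, 2512 and 2766 in the sorted cells. Unlike Snord15b and Snord22, it was not low in allograft tumors 1 and 2. Scarna2, which guides modification of a spliceosomal RNA, was at 9087 to 17630 FPKM over the 9 tumors and at 1111, 572 and 825 in the sorted cells. Snora23, encoded in the importin gene Ipo7, was at 2424 to 8851 FPKM over the tumors and at 92.6, 143 and 193 in the sorted cells, which held 22 of its fragments in all.

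**Figure D1:**
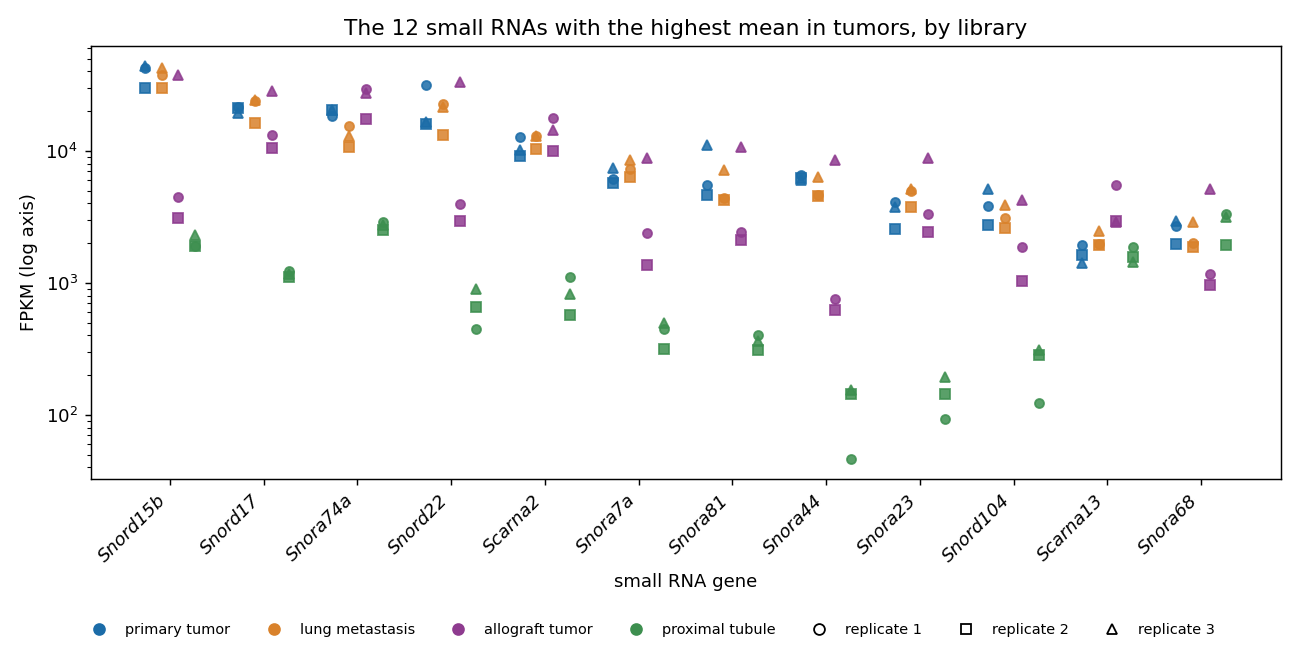
FPKM (log axis) of the 12 small RNAs with the highest mean over the 9 tumor libraries, with 1 point per library, colored by group and shaped by replicate. Snord15b runs from 3124 to 44246 FPKM in tumors against 1888 to 2288 in sorted cells, while Snora68 overlaps the sorted cells in every tumor group and Scarna13 in primary tumors.

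Small RNAs that overlapped the sorted cells numbered 37, 28 and 39 of 109 in primary tumors, metastases and allografts. Some of those with higher FPKM are given here. Snora68, an H/ACA guide, was at 2680, 1976 and 2949 FPKM in primary tumors, 2007, 1873 and 2878 in metastases, 1157, 971 and 5149 in allografts, and 3332, 1932 and 3131 in the sorted cells. The groups overlapped, and its FPM were 1.04, 0.903 and 0.842 times those of the sorted cells. Scarna13, encoded in Snhg10, was at 1928, 1626 and 1424 FPKM in primary tumors, a range shared with the sorted cells at 1879, 1556 and 1429. In metastases it was at 1974, 1927 and 2460 FPKM and in allograft tumors at 5507, 2964 and 2903, above the sorted cells in both. Scarna17 was at 684 to 1798 FPKM in primary tumors and 928 to 1335 in the sorted cells, which overlapped. In metastases it was at 2088, 1900 and 2097 FPKM, above the sorted cells, and in allografts at 283, 327 and 4133, on both sides of them.

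Snord123, encoded in Snhg18, was the 1 small RNA below the sorted cells in every tumor group. It was at 51.1, 30.4 and 27.0 FPKM in primary tumors, 0, 81.6 and 43.3 in metastases, 25.1, 69.7 and 54.7 in allografts, and 139, 179 and 155 in the sorted cells. It rested on at most 6 fragments in any library.

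Host genes were described against the sorted cells in the same way. Of the 13, 6 had all primary tumors above all sorted-cell libraries (46.2%, against 46.0% of all rows) and 0 below (3.93% of all rows). In metastases 10 were above (76.9%, against 51.9% of all rows) and 2 below (15.4%, against 14.5%). In allograft tumors 9 were above (69.2%, against 45.5%) and 2 below (15.4%, against 13.8%). In every tumor group 5 were above, and the share of all rows above in every group was not taken. Among the 71 genes in the table that the annotation gives as hosts of the small RNAs, most of them protein-coding, 32, 62 and 57 were above in primary tumors, metastases and allografts and 2, 6 and 5 below, with median folds of 1.51, 2.21 and 3.70. The shares of all rows above were again 46.0%, 51.9% and 45.5%, and the count in primary tumors is near that background.

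Gas5, a host of many C/D snoRNAs, was at 266, 249 and 156 FPKM in primary tumors, 387, 287 and 298 in metastases, 720, 433 and 817 in allografts, and 138, 151 and 171 in the sorted cells. Metastases and allografts were above the sorted cells and primary tumors overlapped them. Snhg5, which hosts Snord50b, was at 19.5, 6.24 and 6.97 FPKM in primary tumors, 26.7, 24.5 and 24.8 in metastases, 69.0, 38.2 and 58.9 in allografts, and 3.21, 0.758 and 1.23 in the sorted cells. The 4 groups did not overlap. Snhg6, which hosts Snord87, was at 60.4, 43.8 and 19.9 FPKM in primary tumors, 90.9, 84.3 and 69.1 in metastases, 202, 107 and 211 in allografts, and 26.9, 29.0 and 20.5 in the sorted cells. Primary tumor 3 lay below the sorted cells, and the other tumors above them.

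Snhg15 was at 15.6, 9.93 and 10.8 FPKM in primary tumors, 21.6, 17.2 and 19.0 in metastases, 66.3, 40.2 and 39.0 in allografts, and 2.79, 9.95 and 3.86 in the sorted cells. Its allografts stood clear of all other libraries. Snhg3 ranged from 18.2 to 30.4 FPKM in primary tumors, 29.2 to 39.1 in metastases, 40.7 to 68.9 in allografts and 12.9 to 25.6 in the sorted cells. Snhg17 ranged from 6.37 to 8.28, 7.75 to 9.38, 10.2 to 17.9 and 3.91 to 4.02 FPKM in the same order. For both, the order was sorted cells, primary tumors, metastases, allografts, and neighbouring groups overlapped for Snhg3 between sorted cells and primary tumors and between primary tumors and metastases, and for Snhg17 between primary tumors and metastases.

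Snhg12, host of Snora44, Snora16a, Snora61 and Snord99, did not stand above the sorted cells. It was at 14.1, 20.7 and 14.5 FPKM in primary tumors, 22.0, 18.9 and 19.3 in metastases, 33.6, 28.3 and 43.8 in allografts, and 22.3, 30.3 and 20.2 in the sorted cells. Its small RNA Snora44 had 392 to 603 fragments in each primary tumor and metastasis and 1, 4 and 4 in the sorted cells. The sorted cells had a host level within the tumor range and few fragments of this small RNA. Snhg14, the long transcript of the Prader-Willi locus, was at 14.1 to 20.2 FPKM in primary tumors, 12.4 to 13.9 in metastases, 12.8 to 18.6 in allografts and 2.79 to 4.74 in the sorted cells. Snhg20 was at 1971 to 5263 FPKM over the 9 tumors, against 166 to 614 for sorted cells. Snhg9, which hosts Snora78, was at 29.8 to 96.2 FPKM over the tumors and at 0, 0 and 38.6 in the sorted cells. Snhg7os did not reach 1 FPKM in 3 libraries.

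**Figure D2:**
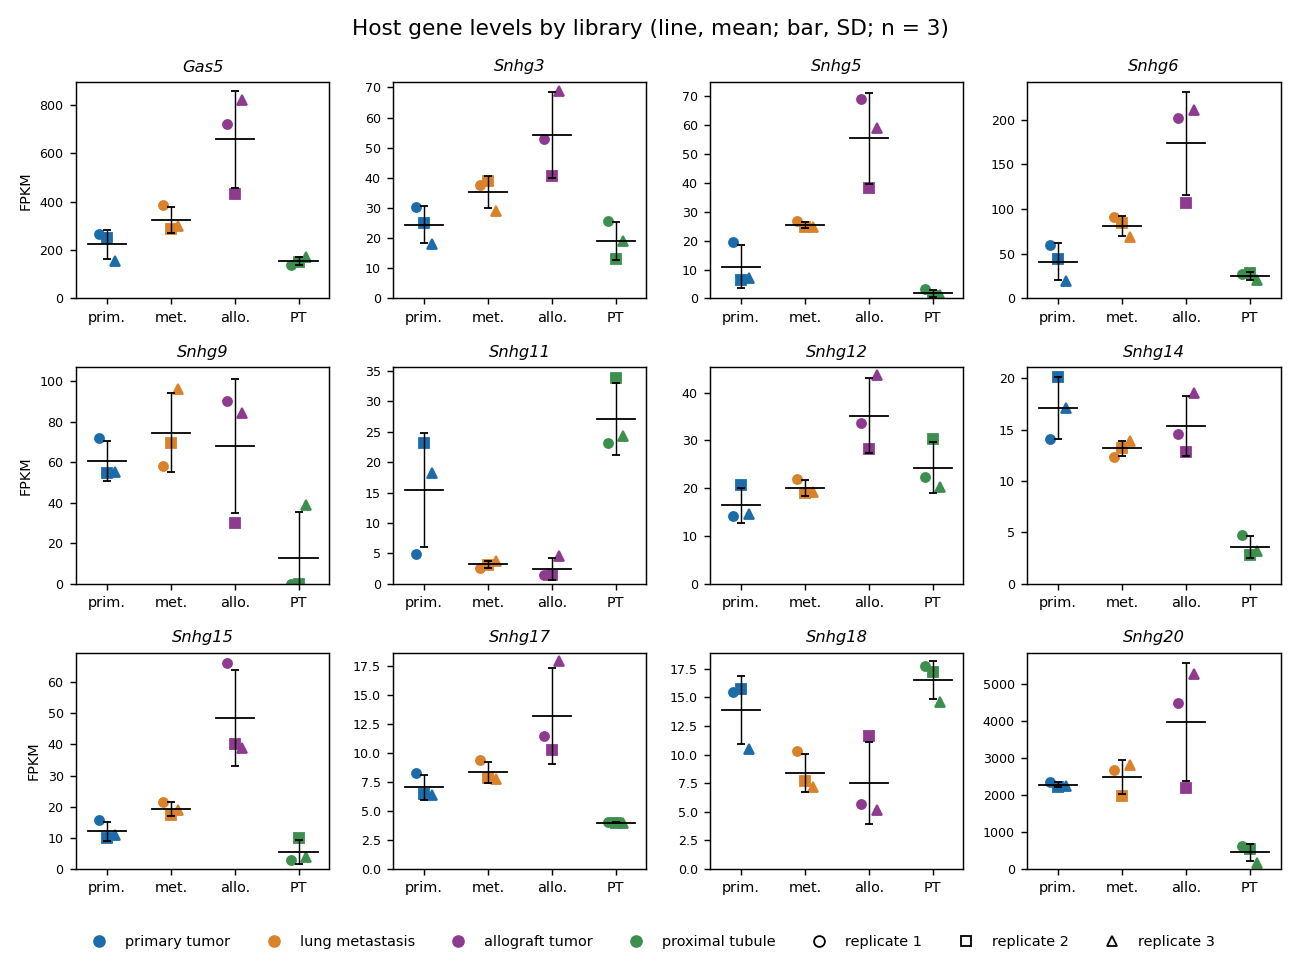
FPKM of 12 host genes (Snhg7os left out) in primary tumors, metastases, allograft tumors and proximal tubule cells (prim., met., allo., PT), with 1 point per library, the mean as a line and the SD as a bar (n = 3). Gas5, Snhg5, Snhg6 and Snhg15 are highest in allografts, while Snhg11 is highest in sorted cells and in primary tumors 2 and 3.

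The hosts Snhg11 and Snhg18 lay below the sorted cells in metastases and allografts, and overlapped them in primary tumors. Snhg11 was at 4.90, 23.1 and 18.3 FPKM in primary tumors, 2.60, 3.12 and 3.76 in metastases, 1.35, 1.5 and 4.52 in allografts, and 23.1, 33.9 and 24.3 in the sorted cells. Primary tumors 2 and 3, which carried proximal tubule markers at 4034 and 1036 FPKM, were near the sorted cells, and primary tumor 1, with 162 FPKM of those markers, was near the metastases. The part of remaining tubule cells in this result was not tested. Snhg18 was at 15.5, 15.7 and 10.4 FPKM in primary tumors, 10.3, 7.68 and 7.16 in metastases, 5.67, 11.6 and 5.19 in allografts, and 17.7, 17.2 and 14.6 in the sorted cells. Metastases and allografts lay below the sorted cells, and primary tumors overlapped them.

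Most of the host genes tested were higher in allograft tumors than in primary tumors. Of 12 hosts tested with limma, 7 rose and 2 fell at an adjusted p under 0.05. Among all 16313 genes tested, 20.5% were higher and 21.1% lower by the same rule. Fitted log2 differences (allograft minus primary, on log2(FPKM + 1), with SE) were 2.37 ± 0.42 for Snhg5 (adjusted p = 0.00176), 2.12 ± 0.38 for Snhg6 (0.00186), 1.90 ± 0.36 for Snhg15 (0.00257) and 1.54 ± 0.28 for Gas5 (0.0021). Snhg3, Snhg12 and Snhg17 rose by 1.11, 1.05 and 0.79. Snhg11 fell by 2.13 (limma adjusted p = 0.00648) and Snhg18 fell by 0.87 (0.0282). The median over the 12 hosts was 0.92, against -0.02 over all genes. Snhg9, Snhg14 and Snhg20 did not pass, at 0.02, -0.15 and 0.71. With primary tumor 1 as the sole primary sample, whose spread is then assumed to be that of the other groups, 3 hosts were called in place of 9.

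Against metastases, 3 hosts were higher in allografts and 0 lower, where 10.4% of all genes were called higher and 13.3% lower. Snhg15 differed by 1.25 ± 0.36 (limma adjusted p = 0.0309), Gas5 by 0.98 ± 0.28 (0.0303) and Snhg12 by 0.76 ± 0.21 (0.0272). The hosts' median was 0.59, against 0.03 over all genes. None of the 3 was called after values were rescaled to TPM (a fixed sum per sample), which moved the median of all genes by -0.26. Between metastases and primary tumors 1 of 12 hosts was called: Snhg11 fell by 1.76 (limma adjusted p = 0.0314). In that comparison 11.3% of all genes were called higher and 9.59% lower. Snhg5 was at a difference of 1.32 ± 0.42 with an adjusted p of 0.05001, just outside the threshold.

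Among the small RNAs, 100 of 109 passed the filter of 1 FPKM in 3 libraries, a filter that a row high in only 1 group can pass. In allograft against primary tumors 15 rose and 8 fell, which is under the shares over all genes given above. The median difference was 0.29 for the small RNAs. The split depended on the scaling: rescaling to TPM gave 12 higher and 10 lower, and quantile normalization gave 12 and 12. It also depended on allograft tumor 3. Without that library 11 were higher and 24 lower, and with it as the only allograft 17 were higher and 2 lower.

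Of the 15 small RNAs that rose, 10 were C/D RNAs, 4 H/ACA RNAs and 1 a scaRNA. Snord93 was at 30.8, 18.3 and 16.3 FPKM in primary tumors, 27.3, 16.4 and 52.3 in metastases, 531, 407 and 507 in allografts, and 0 in all sorted cells. Allografts 1 to 3 held 35, 29 and 23 fragments of it, and no other library held more than 3. The difference was 4.45 ± 0.36 against primary tumors (limma adjusted p = 4.61e-05) and 4.01 ± 0.36 against metastases (3.88e-05).

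Snord70 was at 29.9, 17.8 and 63.2 FPKM in primary tumors, 39.7, 31.8 and 16.9 in metastases, 206, 95.1 and 149 in allografts, and 0 in the sorted cells. Allografts did not overlap the other groups, on 14, 7 and 7 fragments. It rose by 2.11 ± 0.45 against primary tumors and 2.32 ± 0.45 against metastases (limma adjusted p = 0.00432 and 0.00434). Snord45b was at 46.2, 36.7 and 65.2 FPKM in primary tumors, 27.3, 49.3 and 17.4 in metastases, 121, 126 and 154 in allografts, and 0 in the sorted cells, on at most 9 fragments. It rose by 1.45 ± 0.32 and 2.18 ± 0.32 (limma adjusted p = 0.00544 and 9.44e-04). For Snord93, Snord70 and Snord45b the calls held without allograft tumor 3 and with it alone.

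Snord12, which lies in the noncoding gene Zfas1, was at 127, 67.3 and 29.9 FPKM in primary tumors, 175, 211 and 224 in metastases, 487, 257 and 344 in allografts, and 123, 143 and 103 in the sorted cells. The tumor groups did not overlap. It differed by 2.44 ± 0.43 between allografts and primary tumors (limma adjusted p = 0.00173). Snora64, in the ribosomal protein gene Rps2, rose by 2.16, Snord87 by 1.79 and Snord19, in the nucleolar protein gene Gnl3, by 1.67. The other 9 that rose (Snora24, Snord37, Snord96a, Snord45b among them) did so by 1.14 to 1.64. Without allograft tumor 3 the differences were 1.65 for Snora64, 1.46 for Snord87, 1.255 for Snord37 and 0.63 for Snord83b. None of these passed the threshold then. Snora24, Snord96a and a Snora43 row are 3 of the 4 rows with the steps of longer transcripts.

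Several falls were larger in allograft tumors 1 and 2 than in allograft tumor 3. Snord100 was at 238, 66.7 and 267 FPKM in primary tumors, 198, 134 and 206 in metastases, and 0, 0 and 160 in allografts. Allograft 3 lay within the range of the other tumors, and the sorted cells were at 0. It fell by 4.91 against primary tumors and 5.03 against metastases (SE 1.57 for both, limma adjusted p = 0.0295 and 0.0416). With allograft tumor 3 alone, the differences were -0.02 and -0.14. Snora47 was at 1031, 711 and 894 FPKM in primary tumors, 447, 330 and 455 in metastases, 20.3, 65.7 and 265 in allografts, and 111, 229 and 186 in the sorted cells. Allografts did not overlap the other tumors. It fell by 3.59 ± 0.71 and 2.49 ± 0.71 (limma adjusted p = 0.00291 and 0.0277), and with allograft tumor 3 alone the differences were -1.71 and -0.61, the second no longer past the threshold.

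Snord89 was at 1399, 810 and 1100 FPKM in primary tumors, 899, 897 and 1204 in metastases, 183, 146 and 531 in allografts, and 231, 107 and 116 in the sorted cells. It fell by 2.15 ± 0.47 and 2.03 ± 0.47 (limma adjusted p = 0.00507 and 0.0112), and with allograft tumor 3 alone the differences were -1.02 and -0.90, no longer past the threshold. Snora30 was at 1270, 1305 and 1905 FPKM in primary tumors and 136, 116 and 710 in allografts, a fall of 2.71, and Scarna3b fell by 2.48. Neither passed with allograft tumor 3 alone. Snord4a was at 55.6, 99.1 and 73.4 FPKM in primary tumors, 61.5, 74.0 and 47.1 in metastases, and 27.3, 12.6 and 19.9 in allografts, on 1 to 6 fragments per library. It fell by 1.90 and 1.60 (limma adjusted p = 7.78e-04 and 0.00283), and both calls held with and without allograft tumor 3.

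**Figure D3:**
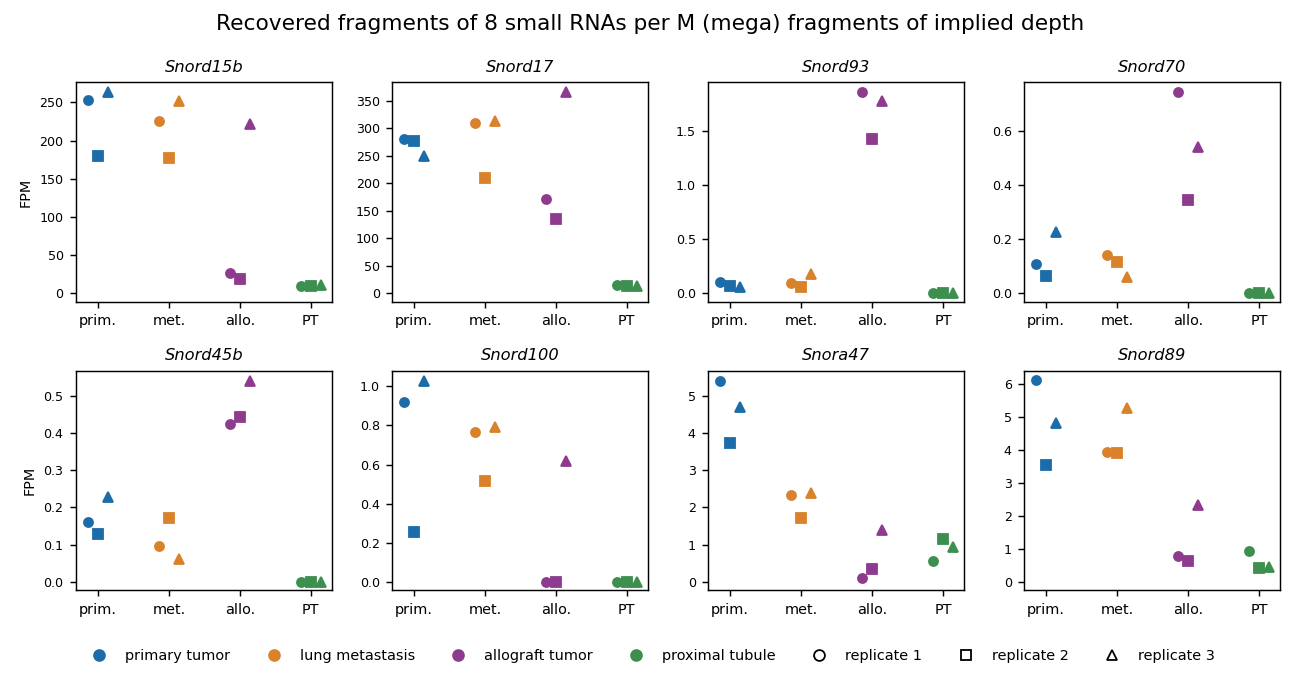
Recovered fragments per M of implied depth (FPM) for the 8 small RNAs whose sequences are printed, with 1 point per library in primary tumors, metastases, allograft tumors and proximal tubule cells. Snord93, Snord70 and Snord45b are highest in the 3 allografts, and among tumors Snord100, Snora47 and Snord89 are lowest in allografts 1 and 2.

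Against metastases, 9 of 100 small RNAs were higher and 5 lower in allografts, with a median difference of 0.03. Over all genes 10.4% were higher and 13.3% lower, so the count of higher calls is near the background. Rescaling to TPM gave 5 and 9, quantile normalization 7 and 7, and rescaling without the 50 most abundant genes 6 and 6. Without allograft tumor 3, 7 were higher and 23 lower. Beside those already named, Snord42a, in the ribosomal protein gene Rpl23a, was at 54.6, 49.3 and 52.3 FPKM in metastases and 167, 112 and 132 in allografts. The difference was 1.36 ± 0.23 (limma adjusted p = 0.00191), on only 10 fragments over the metastases and 25 over the allografts. Snora78 and Snord96a differed by 1.19 and 1.14, and Snord67 fell by 0.86. With allograft tumor 3 as the only allograft, the difference for Snord67 was -0.19.

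Between metastases and primary tumors 4 of 100 small RNAs were higher and 1 lower, with a median of 0.18, and 10 had an unadjusted p under 0.05. Both counts are under the shares of all genes in that comparison, 11.3% and 9.59%. Snord37, in the elongation factor gene Eef2, was at 74.7, 35.5 and 15.8 FPKM in primary tumors and 159, 95.4 and 118 in metastases. The difference was 1.77 ± 0.47 (limma adjusted p = 0.0264), on only 8 fragments over the primary tumors and 25 over the metastases. Snord19 differed by 1.71, Snord12 by 1.65 and Scarna9 by 1.06, and Snord42a fell by 0.81. None of the 5 was called when the fit held the tumor groups alone, nor with primary tumor 1 as the sole primary sample.

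Allograft tumor 3 stood above the other 2 allografts in many small RNAs. Snora44, of 129 nt, was at 750, 625 and 8556 FPKM in allografts 1 to 3, where primary tumors and metastases held 4552 to 6573. The highest ratios of the third to the mean of the others were in RNAs under 100 nt: Snord33, of 84 nt, was at 340, 222 and 4090 FPKM, a ratio of 14.5, and Scarna17, of 79 nt, had a ratio of 13.6. With length classes chosen after the values were seen, and over rows with at least 20 fragments in the allografts, the median ratio was 1.70 for the 29 rows under 100 nt, 4.67 for the 37 rows from 100 to under 190 nt and 1.18 for the 5 rows of 190 nt or more. More than 2-fold above both others were 8, 33 and 1 of these rows, and the 1 long RNA was Snord17 with a ratio of 2.38.

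Some other small noncoding RNAs were also highest in allograft tumor 3. The 2 rows of annotation type rRNA summed to 74.5, 175 and 11593 FPKM in allografts 1 to 3, against 1812 to 6039 in the other tumors. The 995 miRNA rows did not follow, at 1101430, 335624 and 745137 FPKM in all. Rnu11 and Rnu12, RNAs of the minor spliceosome, were at 2135, 1128 and 11854 FPKM and at 7135, 4257 and 25972 FPKM in allografts 1 to 3, and Vaultrc5, a vault RNA, at 246, 203 and 1523. Rmrp, a longer RNA that helps cut ribosomal RNA, was at 215817, 138111 and 245183 FPKM, and Rpph1, the RNA of ribonuclease P, at 166010, 126548 and 119605. Allografts 1 and 2 were below all primary tumors and metastases for Rnu11, Rnu12 and Vaultrc5. In primary tumors and metastases the same length classes of small RNAs differed little between replicates, with median log2 differences of -0.50 to 0.46 of 1 library against the other 2, against 2.22 for the class from 100 to under 190 nt in allograft tumor 3. Whether RNA extraction, library preparation or the tumors themselves differed was not tested.

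**Figure D4:**
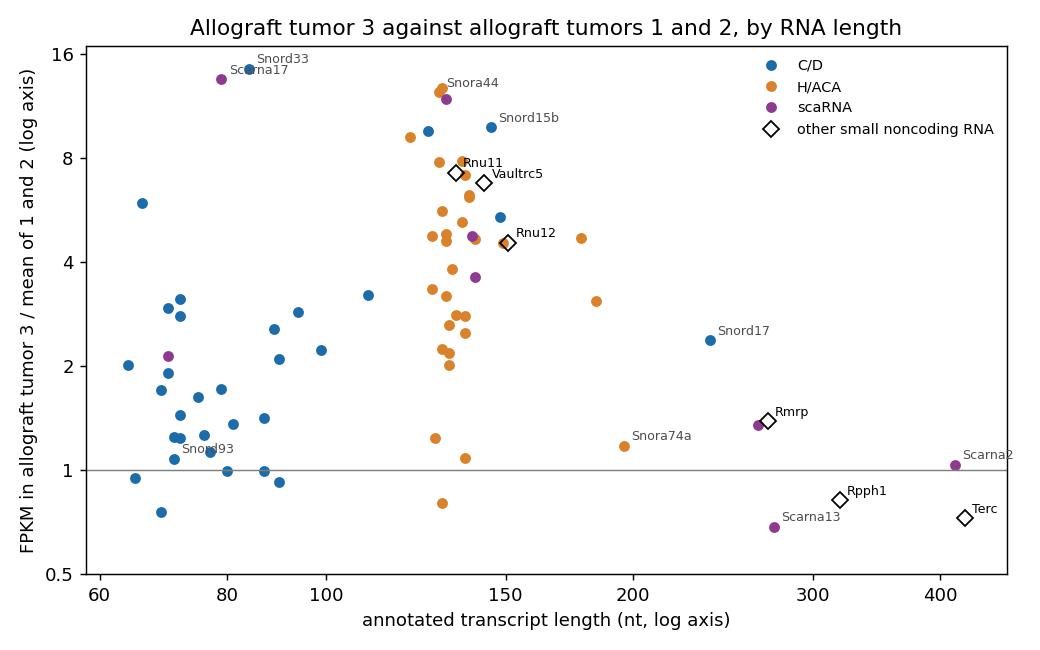
FPKM in allograft tumor 3 over the mean of allograft tumors 1 and 2 (log axis) against annotated transcript length in nt (log axis), with 1 point per small RNA with at least 20 allograft fragments, and diamonds for other small noncoding RNAs. Most rows from 100 to under 190 nt lie more than 2-fold above both others (33 of 37), against 1 of the 5 rows of 190 nt or more.

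Small RNAs and their hosts were then set side by side in 87 pairs with 69 hosts. In allograft against primary tumors the median difference was 0.26 for the small RNAs and 1.30 for their hosts. Host and small RNA were both called higher in 9 pairs and both lower in 2, the calls were opposite in 3, and in 5 pairs the small RNA alone was called. In 54 pairs the host was higher and its small RNA was not called. In 5 pairs the host was lower and its small RNA not called. In that comparison 20.5% of the 16313 genes tested rose and 21.1% fell. A host of several small RNAs is counted in each of its pairs. The small RNA calls also depended on allograft tumor 3, as given above. Of the 101 small RNAs with recovered fragments, 28 had under 10 in every tumor library. A small RNA not called is therefore not shown to be unchanged. Whether hosts and small RNAs change apart was not tested. Across the 87 pairs Pearson's r was 0.40 and Spearman's rho 0.37, given as a description, since pairs share hosts and libraries. Of the 109 small RNAs, 42 lie inside an annotated exon of a host transcript, so the values of such a pair may not be independent. For metastases against primary tumors r was 0.29 and rho 0.29, and for allografts against metastases r was 0.36 and rho 0.36. These comparisons share libraries.

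Pairs that rose together included Snord93 with 2700038G22Rik, which was at 3.46, 2.48 and 3.81 FPKM in primary tumors, 4.00, 4.20 and 4.68 in metastases, 12.2, 11.9 and 15.5 in allografts, and 2.22, 3.08 and 2.23 in the sorted cells. Allografts stood clear of the rest, as they did for the small RNA, and the host rose by 1.74 against primary tumors (limma adjusted p = 1.37e-04). Nop58, host of Snord70, was at 36.1, 17.6 and 14.8 FPKM in primary tumors, 46.9, 47.0 and 42.5 in metastases, 172, 86.7 and 110 in allografts, and 10.2, 11.9 and 12.5 in the sorted cells, and rose by 2.42. Zfas1, host of Snord12, was at 31.2, 22.6 and 15.1 FPKM in primary tumors and 61.3, 50.7 and 106 in allografts, and rose by 1.61. Rabggtb, host of Snord45b, rose by 1.13.

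The 3 opposite pairs were Snord100 with Rps12, Snord4a with Rpl23a and Snord67 with Ckap5. The host rose by 1.65, 1.52 and 1.14 while the small RNA fell by 4.91, 1.90 and 0.99. With allograft tumor 3 as the only allograft, the small RNA differences were -0.02 for Snord100, -1.85 for Snord4a and -0.32 for Snord67. Snord4a held only 4 fragments over the allografts. Rps12 was at 1541, 889 and 631 FPKM in primary tumors and 4338, 2404 and 2579 in allografts. Rpl23a also hosts Snord42a, which was at 92.5, 128 and 65.2 FPKM in primary tumors and did not pass in that comparison (0.55, limma adjusted p = 0.0743), so RNAs from the introns of one gene differed in their calls; the difference between them was not tested. Snora47 fell with its host Zbed3, which fell by 0.63, and Gm15832, host of Snord89, was at 0.25 (limma adjusted p = 0.338).

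**Figure D5:**
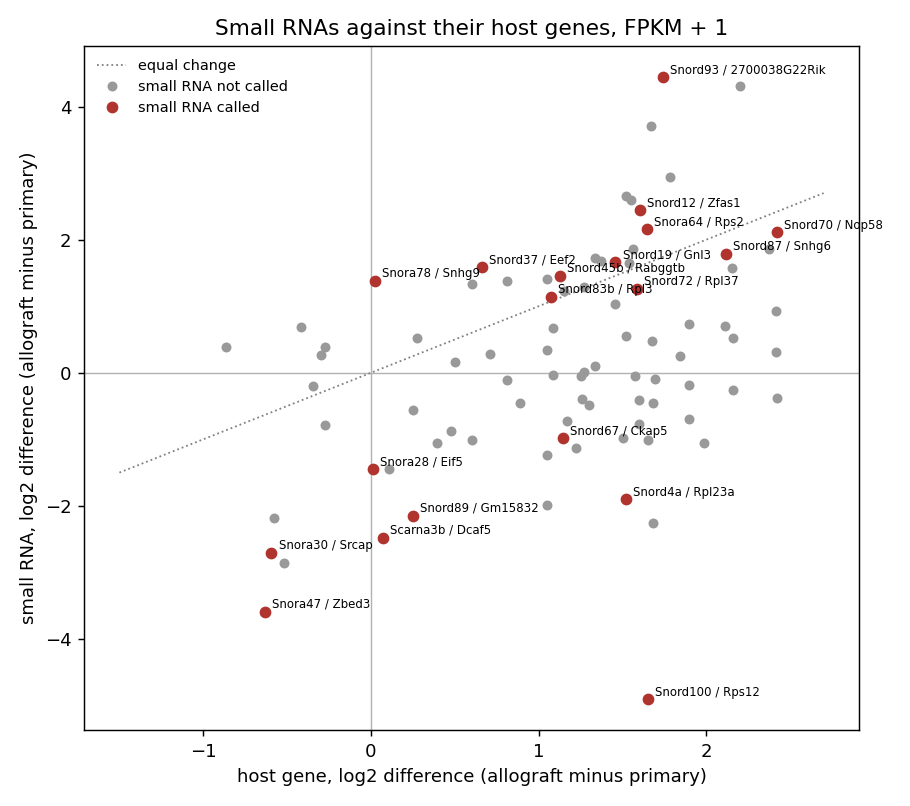
Fitted log2 difference of each small RNA (vertical axis) against that of its host gene (horizontal axis), allograft minus primary tumor, for 87 pairs, with pairs whose small RNA was called named and a dotted line of equal change. Most hosts lie above 0 (median 1.30) while their small RNAs spread around 0.26.

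Of the genes for the 8 core proteins of snoRNA particles, 7 had higher RNA levels in allograft than in primary tumors. Among all genes tested, 20.5% were called higher and 21.1% lower in that comparison. The RNAs of all 4 core proteins of C/D particles (Fbl, Nop56, Nop58 and Snu13) rose against primary tumors, with a median of 1.77. Nop56, a scaffold of the particle, was at 50.8, 20.7 and 25.7 FPKM in primary tumors, 68.3, 67.0 and 64.4 in metastases, 139, 133 and 142 in allografts, and 18.3, 21.1 and 18.5 in the sorted cells. It rose by 2.16 ± 0.26 (limma adjusted p = 2.82e-04). Fbl, the methyltransferase fibrillarin, rose by 1.39 and Snu13 by 1.09. Of the H/ACA core, 3 of 4 rose: Dkc1, the pseudouridine synthase dyskerin, by 1.63, Nhp2 by 1.80 and Gar1 by 1.13, while Nop10 was at 0.11 (limma adjusted p = 0.841). Against metastases 2 of the 4 C/D proteins (Nop56 and Nop58) and 2 of the 4 H/ACA proteins (Dkc1 and Nhp2) were called higher, and 0 lower.

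Dkc1 was at 12.4, 11.4 and 8.75 FPKM in primary tumors, 15.6, 16.1 and 15.1 in metastases, 44.7, 27.5 and 35.4 in allografts, and 6.93, 6.30 and 7.08 in the sorted cells, without overlap between groups. In metastases against primary tumors Nop56, Nop58 and Gar1 rose, by 1.12, 1.07 and 0.84. The lists that follow are to be read against the shares of all genes called higher and lower, which were 20.5% and 21.1% in allografts against primary tumors, 10.4% and 13.3% in allografts against metastases, and 11.3% and 9.59% in metastases against primary tumors. Of 30 genes for RNA polymerase I and ribosomal RNA processing, 20 rose and 0 fell in allografts against primary tumors, 15 and 0 against metastases, and 3 and 0 in metastases against primary tumors. Of 20 factors that assemble or trim snoRNAs, 12, 7 and 1 rose in the same comparisons and 0 fell. Of 16 genes of nonsense-mediated decay and of the control of pyrimidine-rich start sites, 7 rose and 1 fell in allografts against primary tumors, 5 and 0 against metastases, and 1 and 1 in metastases against primary tumors. Of 61 tested protein-coding hosts, 42 rose and 7 fell in allografts against primary tumors.

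RNAs that mature without a poly(A) tail or are retained in the nucleus did not all move alike. Of 59 replication-dependent histone rows, 54 rose and 0 fell in allografts against primary tumors, and 40 and 0 in metastases against primary tumors. Malat1 and Neat1, long nuclear RNAs, fell by 1.96 and 1.42 in allografts against primary tumors. Terc, the telomerase RNA, which carries an H/ACA domain, was at 18.9, 6.93 and 12.7 FPKM in primary tumors, 38.7, 33.4 and 37.9 in metastases, 394, 126 and 189 in allografts, and 0.960, 1.66 and 0.904 in the sorted cells. The 4 groups did not overlap, and it rose by 4.03 against primary tumors (limma adjusted p = 1.33e-04), 2.50 against metastases and 1.54 from primary tumors to metastases. Rmrp and Rpph1 were at 0.94 and 0.91 in allografts against primary tumors and did not pass.

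At the imprinted snoRNA loci, Meg3 and Rian, noncoding RNAs of the locus that also holds Dlk1, rose by 3.09 and 3.37 in allografts against primary tumors (limma adjusted p = 1.48e-04 and 4.58e-04). Rian was at 2.75, 1.30 and 3.22 FPKM in primary tumors, 7.27, 10.1 and 8.37 in metastases, 41.0, 64.6 and 13.7 in allografts, and at most 0.140 in the sorted cells. Snrpn, at the start of the locus that Snhg14 runs through, fell by 2.63, and Snhg14 itself was not called. The repeated snoRNA families of these loci (Snord113 to Snord116) and Snhg1, Snhg4, Snhg7, Snhg8, Snhg10 and Snhg16 were not analysed here.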

How the data were processed

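Bulk RNA of 12 mouse samples in 4 groups of 3 was analysed. The authors deposited 1 table of FPKM for 24432 genes; Salmon, bcl2fastq 2.17.1.14 and the builds GRCm38 and mm10 are named in the submitters' processing notes. Gene lengths, filters, strandedness and library kind were not given in the sources used here. Identifiers were matched to GENCODE M21 (24222 matched). Depth per sample was not stated. It was inferred from whole steps between low values, checked on simulated data, and is approximate for the sorted cells, whose implied lengths appeared cut to whole nt (tumor lengths over sorted-cell lengths 1.00 to 1.31). The floor of 3 fragments covers counting error only. Genes at 1 FPKM or more in 3 of the 12 samples (16313) were fitted on log2(FPKM + 1) with limma 3.58.1 in R 4.3.3, 4 groups in 1 fit with a mean-variance trend, tested on simulated data, and called at a Benjamini-Hochberg adjusted p under 0.05. Named were all hosts at 1 FPKM in 3 samples, the 12 small RNAs of highest FPKM in tumors and up to 12 in sorted cells. Per tumor comparison up to 6 called higher and 6 lower were also named. Others named were chosen after their values were seen. The members and gene lists were chosen with earlier results of these data known. Alternatives varied the pseudocount, filter, scaling, samples and replicate block.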

Additional observations from a re-analysis of the deposited data

How the results depend on the processing

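Of all 55 calls of members between tumor groups, 12 were lost on rescaling to TPM, 9 on rescaling without the 50 most abundant genes and 7 under quantile normalization. With tumor groups alone in the fit 15 were lost, and 0 to 6 under other pseudocounts, filters and median-of-ratios scaling. With 1 sample left out 2 to 16 were lost, the most without allograft tumor 1, metastasis 2 or metastasis 3. No direction reversed. TPM moved the median of all genes by -0.23 for allografts against primary tumors and -0.26 against metastases, the scaling without the 50 most abundant genes by -0.27 and -0.21, and quantile normalization by 0.11 and 0.08. Counts of calls moved by over 1.5 times as follows, and the cause was not tested. Small RNAs called in metastases against primary tumors went from 5 to 0 with tumor groups alone and to 0 without primary tumors 2 and 3. Hosts called there went from 1 to 2 with a pseudocount of 5, 2 with TPM, 3 with quantile normalization, 0 with tumor groups alone and 0 without primary tumors 2 and 3. In allografts against primary tumors, leaving out primary tumors 2 and 3 took small RNAs from 23 to 13 and hosts from 9 to 3. Hosts called in allografts against metastases went from 3 to 0 with TPM and 0 without the 50 most abundant genes. Hosts above the sorted cells went from 6 to 3 with TPM, 2 with quantile normalization and 10 without primary tumors 2 and 3 for primary tumors, and from 10 to 5 with TPM for metastases.

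With 1 sample left out at a time, small RNAs called ranged from 0 to 8 in metastases against primary tumors, 16 to 35 in allografts against primary tumors and 8 to 30 in allografts against metastases, both highest counts being without allograft tumor 3. Hosts called ranged from 0 to 3, 8 to 9 and 0 to 6. Small RNAs above the sorted cells ranged from 73 to 78 in primary tumors, 82 to 84 in metastases and 69 to 78 in allografts, and hosts from 6 to 8, 10 to 10 and 9 to 11. In their deviations from group means, same-numbered samples of different groups correlated at -0.04 to 0.10 (median 0.02 over 18 pairs). Differently numbered samples correlated at -0.23 to 0.13 (median 4.4e-05 over 36 pairs). These values cannot settle whether a primary tumor and a metastasis came from the same mouse. With the replicate block, hosts called in metastases against primary tumors went from 1 to 2, and 2 of the 55 calls were lost. The alternatives using allograft tumor 3 alone, and sorted-cell values at lengths not cut to whole nt (74 small RNAs above in allografts, against 69), were added after seeing the data. With 1 sample in a group its spread was assumed to be that of the other groups. Depth limits the sorted cells: 1 fragment of a 4 nt implied length is worth 35.8 to 46.3 FPKM there.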

Other observations

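Several small RNA rows were listed at 0 throughout. Snord1a, Snord64 and Snord98 were at 0 in all 12 libraries, and Snora19 was at 0 in all tumor libraries. A further 19 rows of the annotation's snoRNA and scaRNA types fell outside the symbol rule and were not described.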
